A study of Mus musculus with 2 samples.

Results

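The 10 genes described here make diacylglycerol, remove it, or encode abundant substrates of the kinases that it activates. They were taken by gene symbol from the 54532 genes of the deposited table and comprise 5 phospholipase C genes (Plcb1, Plcb3, Plcb4, Plce1 and Plcg1), 3 diacylglycerol kinase genes (Dgka, Dgkd and Dgkz) and the MARCKS family pair Marcks and Marcksl1. Messenger RNA came from CMT167R cells, a derivative of the mouse lung carcinoma line CMT167 that the labels call resistant to anti-PD1, an antibody against the PD-1 receptor of T cells. The design held 2 libraries, 1 from untreated cells (CON) and 1 from cells given 50 nM of a compound called PKCi for 24 h. What compound PKCi stands for is not stated, and the control is described as untreated, not as given the solvent. The study's title places protein kinase C signalling and XIAP in the setting of immunotherapy resistance, and the comparison asks what the compound did to messenger RNA levels.

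Phospholipase C enzymes cut the membrane lipid phosphatidylinositol bisphosphate into inositol trisphosphate, which opens calcium channels of the endoplasmic reticulum, and diacylglycerol, which stays in the membrane and recruits the conventional and the calcium-independent isozymes of protein kinase C that bind it. Diacylglycerol kinases end that signal by phosphorylating diacylglycerol to phosphatidic acid. MARCKS proteins bind the plasma membrane, phosphoinositides and actin, and leave the membrane when protein kinase C phosphorylates them or calmodulin binds them. Messenger RNA levels do not measure the activity of any of these proteins or the amount of the lipid.

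Gene counts summed to 16090186 (untreated) and 16071153 (PKCi). Levels are given as CPM, the counts scaled to a library sum of 1000000, where 1 CPM equals 16.1 counts in either library. With 1 library per group no difference has a replicate check, no test between conditions was possible, and every interval below covers counting error at the 95% level only. A gene was called measured at 1 CPM or more in at least 1 library, which 12273 genes and all 10 members reached. Epithelial markers were present at unequal levels (6 of 6 measured, summing to 1685 and 2057 CPM, where the first of paired values is always the untreated library). Most of that sum came from Krt8 (933 and 1182 CPM) and Krt18 (642.6 and 764.6 CPM). Krt19 was at 59.7 and 71.1 CPM, while Krt7 was lower with PKCi (43.5 and 29.8 CPM). Epcam (3.48 and 6.28 CPM) and Cdh1 (2.92 and 3.36 CPM) were low. Of the markers of differentiated lung epithelium, 0 of 7 were measured. Nkx2-1, Sftpa1, Sftpb, Sftpc and Scgb1a1 had 0 counts in both libraries, for which a limit of 3 counts (0.187 CPM) was taken. Markers of other cell types had low sums. Leukocyte markers summed to 8.83 and 3.86 CPM (1 of 14 measured, with Ptprc, Cd3e, Cd4, Cd8a and Itgam among those at 0). The 1 measured was Lyz2, at 8.27 and 3.11 CPM. Fibroblast markers summed to 12.8 and 13.9 CPM (4 of 6 measured). Of these 4, Col1a1 was lower with PKCi (8.89 and 4.36 CPM). Pdgfra (2.67 and 6.04 CPM), Col3a1 (0.870 and 2.36 CPM) and Dcn (1 and 17 counts) were higher. Endothelial markers summed to 0.621 and 1.24 CPM (0 of 5 measured). A protocol in the labels speaks of retinas. Retina markers summed to 0.249 and 0.373 CPM (0 of 9 measured, with Rcvrn, Crx, Nrl, Pde6a and Rlbp1 among those at 0).

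Plce1 was the member that differed most, at 6.12-fold lower in the PKCi library, and the other 9 members lay between 2-fold lower and 2-fold higher. Members of the same family stood on both sides of an even level. Plcb3, Plcg1, Dgka and Marcksl1 were higher, Plce1, Plcb1 and Dgkz lower, and Dgkd, Marcks and Plcb4 at most 1.12-fold lower. On the scale log2((PKCi + 1)/(CON + 1)) in CPM, 1 of 10 members was at least 2-fold lower, where 5.13% of all measured genes were, and 0 of 10 were at least 2-fold higher, where 6.53% were. At 1.5-fold, 3 members were lower (background 16.7%) and 1 was higher (background 16.8%). The median log2 ratio of the 10 members was −0.07, beside −0.01 over all measured genes. As a set the 10 genes thus stood near the background in both directions, and the description below rests on the single genes and their shares of each family.

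**Figure D1:**
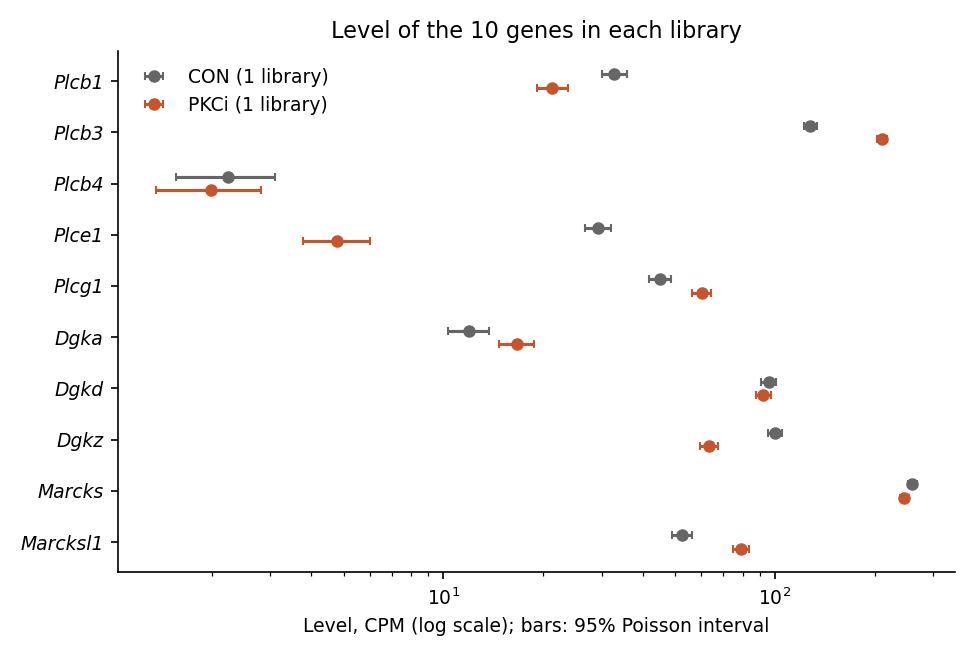
Level of each of the 10 genes in the untreated (CON, grey) and PKCi (orange) library, in CPM on a log axis, with 95% Poisson intervals that cover counting error only. Plce1 shows the widest gap between libraries, from 29.3 to 4.79 CPM, while the Plcb4 intervals overlap almost entirely.

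Phospholipase C epsilon, encoded by Plce1, is activated by small GTPases of the Ras superfamily and also acts as an exchange factor for Rap. The gene (ENSMUSG00000024998) spans chr19:38481109-38785030 on the plus strand of GRCm38, the build whose coordinates the deposited table carries. It had 472 counts untreated and 77 with PKCi, or 29.3 CPM (95% interval 26.7 to 32.1) and 4.79 CPM (3.78 to 5.99). The library intervals did not overlap, and the level was 6.12-fold lower with PKCi (95% interval 4.80 to 7.90). Its log2 ratio of −2.39 was lower than that of all but 13 of the 12273 measured genes. The value is for the gene as a whole: GENCODE M21 lists 7 transcripts of Plce1, of which 4 are protein-coding, and gene-level counts cannot tell them apart. A single annotated antisense gene inside it, Gm28991, had 0 counts in both libraries.

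The phospholipase C beta genes encode enzymes that Gq family proteins and G protein beta-gamma subunits activate. Plcb3 (ENSMUSG00000024960, chr19:6953714-6969759, minus strand) had 2060 counts untreated and 3379 with PKCi, at 128 and 210.3 CPM. The PKCi level was 1.64-fold higher (95% interval 1.55 to 1.74), and 87.4% of measured genes had a lower log2 ratio. Plcb1 (ENSMUSG00000051177, chr2:134786067-135475258, plus strand) went the other way, with 528 and 343 counts, at 32.8 and 21.3 CPM (1.54-fold lower, 95% interval 1.34 to 1.77). The pseudogene Gm14036 lies within Plcb1 on the same strand and had 18 and 7 counts, and reads that fit both could have been split between them. Plcb4 (ENSMUSG00000039943, chr2:135659011-136014593, plus strand) was barely present, with 36 and 32 counts at 2.24 and 1.99 CPM. A difference in Plcb4 was not detectable at this depth (1.12-fold lower, 95% interval from 1.87-fold lower to 1.47-fold higher).

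Plcg1 encodes phospholipase C gamma 1, which receptor tyrosine kinases phosphorylate and activate. The gene (ENSMUSG00000016933, chr2:160731300-160775760, plus strand) had 725 and 967 counts, at 45.1 and 60.2 CPM, and was 1.34-fold higher with PKCi (95% interval 1.21 to 1.47). Its span overlaps Zhx3 on the opposite strand, which had 257 and 172 counts. Whether counting used strand is not given in the sources used here, so reads in shared exons could not be assigned with certainty. How far shared reads entered the difference in Plcg1 was not tested.

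**Figure D2:**
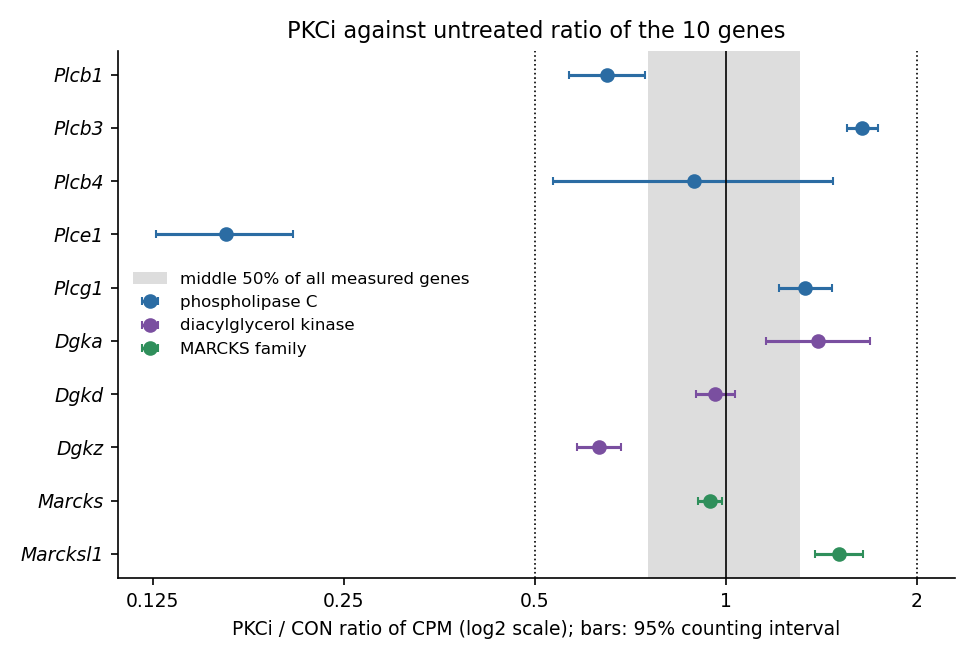
Ratio of the PKCi to the untreated level for each gene, on a log2 axis, with 95% counting intervals. Grey marks the middle 50% of all measured genes, dotted lines mark 2-fold, and colours mark the 3 families. Plce1 alone lies beyond 2-fold, and each family has members on both sides of 1.

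The 3 diacylglycerol kinase genes encode enzymes of different types. Diacylglycerol kinase alpha is calcium-binding and known for limiting diacylglycerol signals in T cells, delta carries a pleckstrin homology domain, and zeta carries a MARCKS-like phosphorylation site domain and binds PDZ proteins. Dgkz (ENSMUSG00000040479, chr2:91932824-91975864, minus strand) had 1610 counts untreated and 1015 with PKCi, at 100.1 and 63.2 CPM. It was 1.58-fold lower with PKCi (95% interval 1.46 to 1.72), and the library intervals did not overlap. Dgka (ENSMUSG00000025357, chr10:128720134-128744855, minus strand) had 192 and 268 counts, at 11.9 and 16.7 CPM, and was 1.40-fold higher (95% interval 1.16 to 1.69). The leukocyte markers at 0 counts include Cd3e, Cd4 and Cd8a of T cells, and the source of the Dgka counts was not tested. Dgkd (ENSMUSG00000070738, chr1:87853287-87945180, plus strand) had 1542 and 1484 counts, at 95.8 and 92.3 CPM, and its interval included an even level (1.04-fold lower, 95% interval from 1.12-fold lower to 1.04-fold higher). Its last 62 bases overlap Usp40 on the opposite strand, with 812 and 752 counts.

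Marcks and Marcksl1 encode myristoylated proteins that share a basic effector domain where protein kinase C phosphorylates them. Marcks (ENSMUSG00000069662, chr10:37133375-37138920, minus strand) had the highest level of the 10, with 4182 and 3946 counts at 259.9 and 245.5 CPM. At that depth, with scaling by library totals, a small difference was resolved from counting error, 1.06-fold lower with PKCi (95% interval 1.01 to 1.11). The log2 ratio of Marcks was −0.08 with that scaling and −0.05 with upper-quartile scaling, for which no interval was computed. The spread between cultures is unknown. Marcksl1 (ENSMUSG00000047945, chr4:129513581-129515985, plus strand) had 845 and 1273 counts, at 52.5 and 79.2 CPM, and was 1.51-fold higher (95% interval 1.38 to 1.65). Both have a single annotated transcript, so their gene counts stand for 1 message each.

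**Figure D3:**
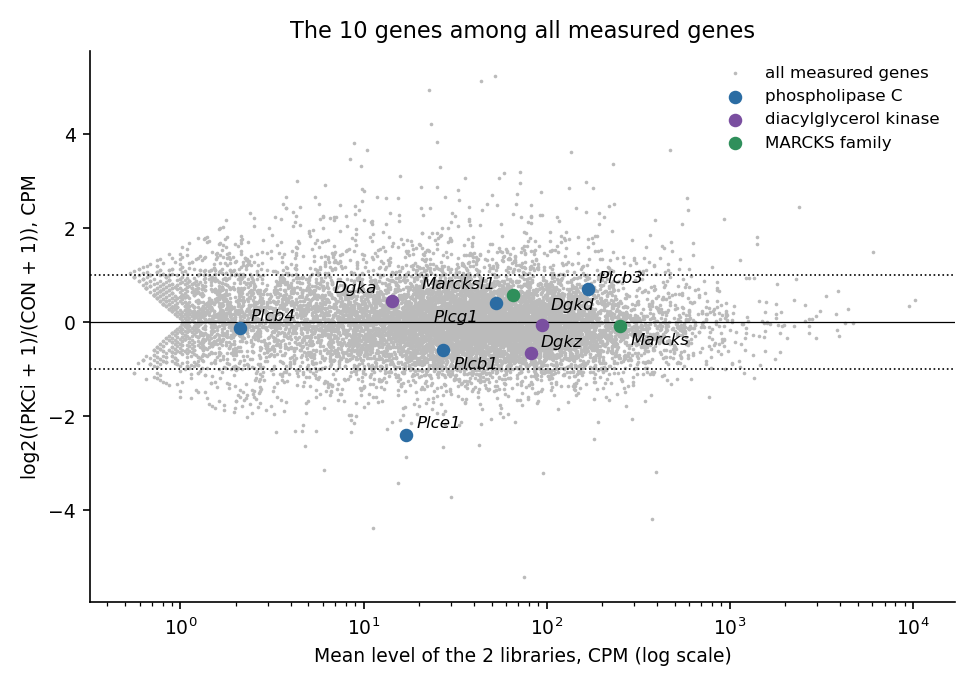
Log2 ratio of PKCi to untreated against the mean level of both libraries in CPM (log axis) for 12273 measured genes (grey) and the 10 genes (coloured by family). Dotted lines mark 2-fold. Plce1 lies at −2.39, at the lower edge of genes of its level, and the other 9 lie inside the main cloud.

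Promoter sequences from RefSeq (GRCm38.p6) matched 9 of the 10 genes by symbol, at 14 annotated starts. No sequence was matched for Marcks. The 250 bases before the start are shown for Plcb3 and Marcksl1, the members with the highest ratios, because these windows hold no annotated exon and differ in their short motifs. The Plcb3 window is chr19:6969815-6970064 on the minus strand and the Marcksl1 window is chr4:129513331-129513580 on the plus strand, both written 5′ to 3′ along the gene. Capitals mark matches on either strand to a GC box (GGGCGG), a TEAD motif (GGAATG), an AP-1 motif (TGANTCA), the core of a cyclic AMP response element (TGACG), the box of the letters CCAAT, or an E-box (CACGTG).
Plcb3: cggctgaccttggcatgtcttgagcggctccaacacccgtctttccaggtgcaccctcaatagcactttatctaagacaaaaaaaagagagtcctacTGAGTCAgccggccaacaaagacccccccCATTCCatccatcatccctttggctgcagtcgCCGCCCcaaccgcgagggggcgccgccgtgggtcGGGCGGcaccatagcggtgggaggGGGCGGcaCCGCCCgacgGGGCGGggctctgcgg
Marcksl1: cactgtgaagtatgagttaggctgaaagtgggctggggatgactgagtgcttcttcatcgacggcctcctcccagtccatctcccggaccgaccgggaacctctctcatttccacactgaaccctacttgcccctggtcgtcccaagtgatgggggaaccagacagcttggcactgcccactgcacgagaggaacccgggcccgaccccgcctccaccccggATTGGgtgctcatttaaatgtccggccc
The Plcb3 window held 5 GC boxes, 1 AP-1 match and 1 TEAD match. Of all 32851 promoter windows of the same length, 32.7% held a GC box, 6.75% an AP-1 match and 12.6% a TEAD match. The Marcksl1 window held 1 CCAAT box, a motif found in 33.8% of all windows, and none of the other motifs marked. The window before the RefSeq start of Plce1, chr19:38523947-38524196, overlaps an exon of a longer Plce1 transcript and is therefore not shown. It had 38.8% G and C, below the median of 52.4% over all windows, and 0 matches to each of these 6 motifs. A match is a string of letters and no evidence of binding.

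Within a library, levels can be compared between genes only per gene length, and they are given here as TPM, the counts divided by the listed gene lengths and scaled to a sum of 1000000. Untreated, the order from the highest was Marcks (208.5 TPM), Marcksl1 (106.3), Plcb3 (98.98), Dgkz (51.8), Dgkd (45.4), Plcg1 (18.6), Plcb1 (9.59), Dgka (8.14), Plce1 (5.96) and Plcb4 (0.810). Counting intervals of Marcksl1 and Plcb3 overlapped, as did those of Plcb1 and Dgka, and all other neighbours stood apart. With PKCi, Dgkd stood above Dgkz (44.03 and 32.9 TPM), Dgka above Plcb1 (11.4 and 6.27 TPM), and Plce1 had come down to Plcb4 (0.978 and 0.725 TPM, intervals overlapping). Plcb3 and Marcksl1 overlapped again, at 163.5 and 161.2 TPM. The listed length of Plcb3, 4201 bases, is shorter than the 6960 bases of its merged exons in GENCODE M21. Its span there also differs from the one in the deposited table. With the latter length, chosen after seeing the data, Plcb3 was at 59.7 and 98.7 TPM and stayed behind Marcks and Marcksl1 in both libraries. The listed lengths of the other 9 genes equal their merged exons.

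The make-up of the phospholipase C messages differed between the libraries, while their summed counts were nearly equal. The 18 phospholipase C and related genes together had 8162 counts untreated and 8168 with PKCi, at 507.3 and 508.2 CPM (ratio 1.00, 95% interval 0.972 to 1.03), and per length 315.1 and 343.9 TPM. By TPM, Plcb3 made up 31.4% of the family total untreated and 47.5% with PKCi (21.7% and 35.4% with the longer length, where Plcg2 led untreated at 31.8% and was behind Plcb3 with PKCi at 25.2%). Only the Plcb3 length was replaced, and the listed lengths of Plcg2 and the other relatives were not compared with GENCODE M21. Plce1 went from 1.89% to 0.284% and Plcb1 from 3.04% to 1.82%. Plcb3 stood 16.6 times above Plce1 per length untreated (95% interval 15.03 to 18.4) and 167 times above it with PKCi (95% interval 133 to 212). With the longer Plcb3 length these ratios were 10.03 (95% interval 9.07 to 11.1) and 101 (95% interval 80.5 to 128). Summed over the 5 members alone, phospholipase C counts were 1.26-fold higher with PKCi (237.5 and 298.5 CPM, 95% interval 1.20 to 1.31). That sum rests on Plcb3: without it, the other 4 were 1.24-fold lower (109.4 and 88.3 CPM, 95% interval 1.16 to 1.33).

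Of the 13 relatives of the phospholipase C members, 6 were measured. Of these, 5 were below a log2 ratio of 0, as were 6233 of all 12273 measured genes. None was past 2-fold on that scale (background 5.13% lower and 6.53% higher). Plcg2, the other gamma isozyme, was at 116 and 92.7 CPM (1.25-fold lower), and the delta isozyme gene Plcd3 at 46.3 and 46.9 CPM. Plch1, the eta isozyme gene, was at 27.2 and 22.2 CPM. The catalytically inactive relatives Plcl2 and Plcl1 were 1.65-fold and 3.50-fold lower (61.8 and 37.4 CPM; 35 and 10 counts), and Plcxd2 1.81-fold lower (15.2 and 8.40 CPM). Plcl1 passes 2-fold as a plain ratio but not with 1 CPM added, where its log2 ratio was −0.97. The other 7, under 1 CPM in both libraries, were Plcb2, Plcd1, Plcd4, Plch2, Plcz1, Plcxd1 and Plcxd3.

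**Figure D4:**
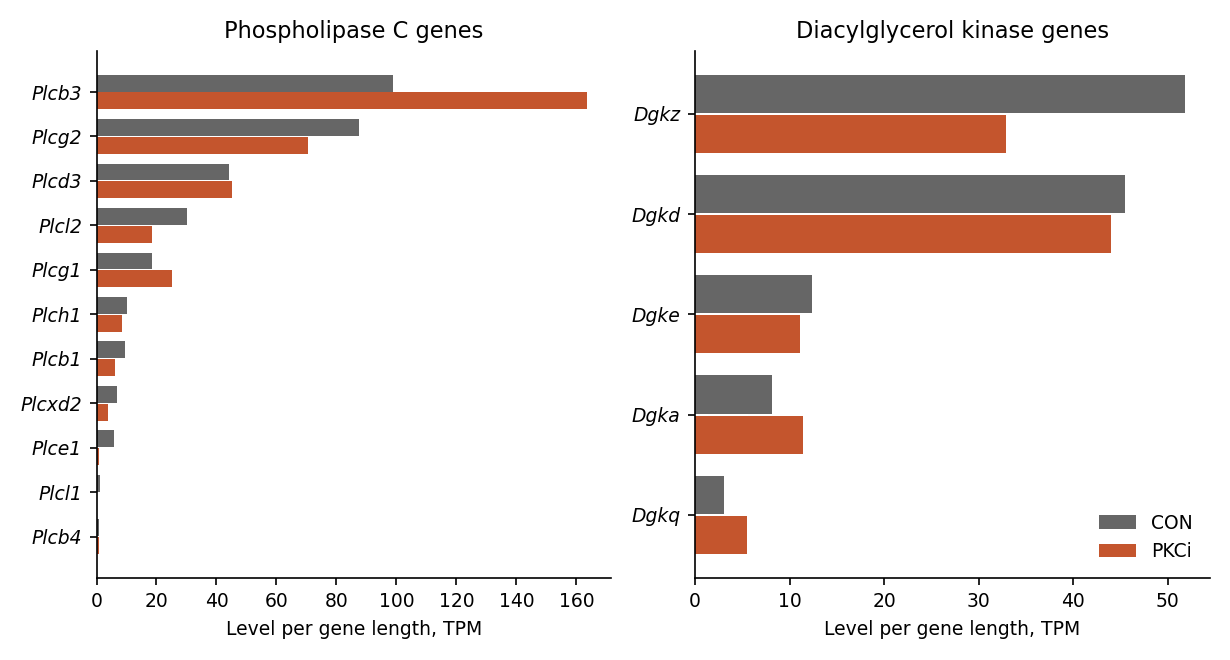
Level per gene length (TPM, linear axis from 0) of the phospholipase C genes (left) and diacylglycerol kinase genes (right) above 0.5 TPM in a library, untreated in grey and with PKCi in orange, 1 library each. Plcb3 leads its family in both libraries on the listed lengths, and Dgkz and Dgkd exchange places.

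The diacylglycerol kinase family was carried by Dgkz and Dgkd in both libraries. Over the 10 family genes the sum was 246.8 and 212.7 CPM (1.16-fold lower, 95% interval 1.11 to 1.21), and over the 3 members 207.8 and 172.2 CPM (1.21-fold lower, 95% interval 1.15 to 1.27). Per length, the share of Dgkz was 42.9% untreated and 31.3% with PKCi, that of Dgkd 37.6% and 42.0%, and that of Dgka 6.73% and 10.9%. Dgkz stood 6.37 times above Dgka untreated (95% interval 5.48 to 7.44) and 2.88 times with PKCi (95% interval 2.51 to 3.30). Of the other 7 family genes, Dgke, a kinase with a preference for arachidonoyl diacylglycerol, was at 31.9 and 28.6 CPM with an interval that included an even level. Dgkq was at 6.90 and 12.01 CPM (1.74-fold higher, 95% interval 1.37 to 2.22). Dgkg, Dgkh, Dgki and Dgkk had 0 counts in both libraries, and Dgkb had 3 and 0 counts. The MARCKS pair together was at 312.4 and 324.7 CPM (1.04-fold higher, 95% interval 0.9997 to 1.08), and the per-length ratio of Marcks to Marcksl1 was 1.96 untreated (95% interval 1.82 to 2.12) and 1.23 with PKCi (95% interval 1.15 to 1.31).

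Together with the relatives above, the rest of the pathway was covered by 118 genes in 10 lists, of which 87 were measured. At least 2-fold on the log2 scale with 1 CPM added, 12 were higher (background 6.53%) and 3 lower (background 5.13%) in the PKCi library. Their median log2 ratio was 0.21. Of the 12 that were higher, 4 came from the list of other diacylglycerol receptors and their relatives, in which 8 genes were measured. Rasgrp3, a Ras and Rap exchange factor recruited by diacylglycerol, was at 27.5 and 135.8 CPM (4.93-fold higher, 95% interval 4.45 to 5.47). The vesicle priming genes Unc13a, Unc13d (a relative without the lipid-binding domain) and Unc13b were 5.33-fold, 2.82-fold and 2.72-fold higher (3.48 and 18.5 CPM, 22.5 and 63.5 CPM, 15.3 and 41.6 CPM). Of the protein kinase D genes, Prkd2 was at 14.6 and 25.5 CPM, Prkd3 at 1.68 and 3.17 CPM, and Prkd1 at 19.3 and 17.4 CPM. Rasgrp1, Rasgrp2, Rasgrp4 and Unc13c had 0 counts in both libraries. The 5 measured protein kinase C genes of the diacylglycerol-binding classes all had log2 ratios above 0, as did 6040 of all 12273 measured genes. Their ratios ran from 0.19 (Prkca) to 0.76 (Prkcd and Prkch). None passed 2-fold on that scale (background 6.53% higher and 5.13% lower). Prkch had 4 and 18 counts and reached 1 CPM in the PKCi library alone.

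Upstream of phospholipase C, the list of G protein and small GTPase genes had 10 measured members. On the log2 scale with 1 CPM added, 3 of them passed 2-fold upwards (background 6.53%) and 0 downwards (background 5.13%). Gna14, a Gq family subunit, had 12 and 79 counts (6.59-fold higher, 95% interval 3.57 to 13.3), while the main Gq subunit genes Gnaq (47.5 and 53.1 CPM) and Gna11 (111 and 101 CPM) differed little. Rhoa and Rras, small GTPases of the groups that act on phospholipase C epsilon, were 2.11-fold and 2.94-fold higher (283.3 and 597.2 CPM, 31.01 and 91.03 CPM). Rap2b was 2.05-fold higher as a plain ratio, just under 2-fold on the log2 scale (0.99), and Rap1b was 1.66-fold higher. Gna15, a Gq family subunit known from blood cells, had 36 and 14 counts (2.57-fold lower as a plain ratio, 95% interval 1.35 to 5.15), and its log2 ratio of −0.79 was short of 2-fold because the added 1 CPM weighs on so low a level.

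Other routes to and from diacylglycerol were mixed. Among 10 measured genes of its other sources, Pld1, a phospholipase D that makes phosphatidic acid, was 2.93-fold higher (24.5 and 71.7 CPM) and its relative Pld2 2.01-fold higher (39.7 and 80.02 CPM, log2 ratio 0.99). Plpp1, a lipid phosphatase that can turn phosphatidic acid into diacylglycerol at the cell surface, was 2.44-fold lower (64.9 and 26.6 CPM). The lipin genes Lpin1 and Lpin2, whose enzymes do so inside the cell, were 1.64-fold and 1.63-fold higher. Among 7 measured genes of its other removal, Chpt1, a cholinephosphotransferase, was 2.23-fold lower (30.4 and 13.6 CPM), the related Selenoi 1.64-fold lower, and the related Cept1 1.63-fold higher. Dagla, a diacylglycerol lipase gene, was 1.72-fold lower (27.2 and 15.8 CPM), and Daglb had 0 counts in both libraries.

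On the phosphoinositide side, 1 of 20 measured resynthesis genes was past 2-fold, upwards (background 6.53%). It was Pitpnc1, a lipid transfer protein gene, at 10.8 and 38.5 CPM (3.56-fold higher, 95% interval 3.01 to 4.24). Pitpnm1, which carries phosphatidylinositol to the plasma membrane, was 1.78-fold higher and the kinase gene Pip5k1b 1.86-fold higher. Among 10 measured genes of the inositol trisphosphate branch, 2 were at least 2-fold higher (background 6.53%), both among the 3 receptor channel genes. Itpr2 was at 13.5 and 46.7 CPM (3.46-fold) and Itpr3 at 204.9 and 437.3 CPM (2.13-fold), whereas Itpr1 was at 68.1 and 53.9 CPM (1.26-fold lower). Impa2, an inositol monophosphatase gene, was 1.70-fold lower.

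Among the other protein kinase C substrates, 9 of 16 were measured, and 1 passed 2-fold in each direction (background 6.53% upwards and 5.13% downwards). Ezr, which links actin to the membrane, was at 297.5 and 959.4 CPM (3.22-fold higher, 95% interval 3.12 to 3.33), its relative Msn was 1.92-fold higher, and its relative Rdx 1.43-fold lower. Cavin2, a caveolar coat protein that binds phosphatidylserine, was at 130.8 and 45.7 CPM (2.86-fold lower, 95% interval 2.63 to 3.12), and Cavin3 was 1.71-fold lower. Basp1, a myristoylated protein often grouped with MARCKS, was 1.56-fold higher (23.2 and 36.3 CPM). Gap43 had 0 and 4 counts, Nrgn 2 in each library, and Akap12 6 and 5.

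**Figure D5:**
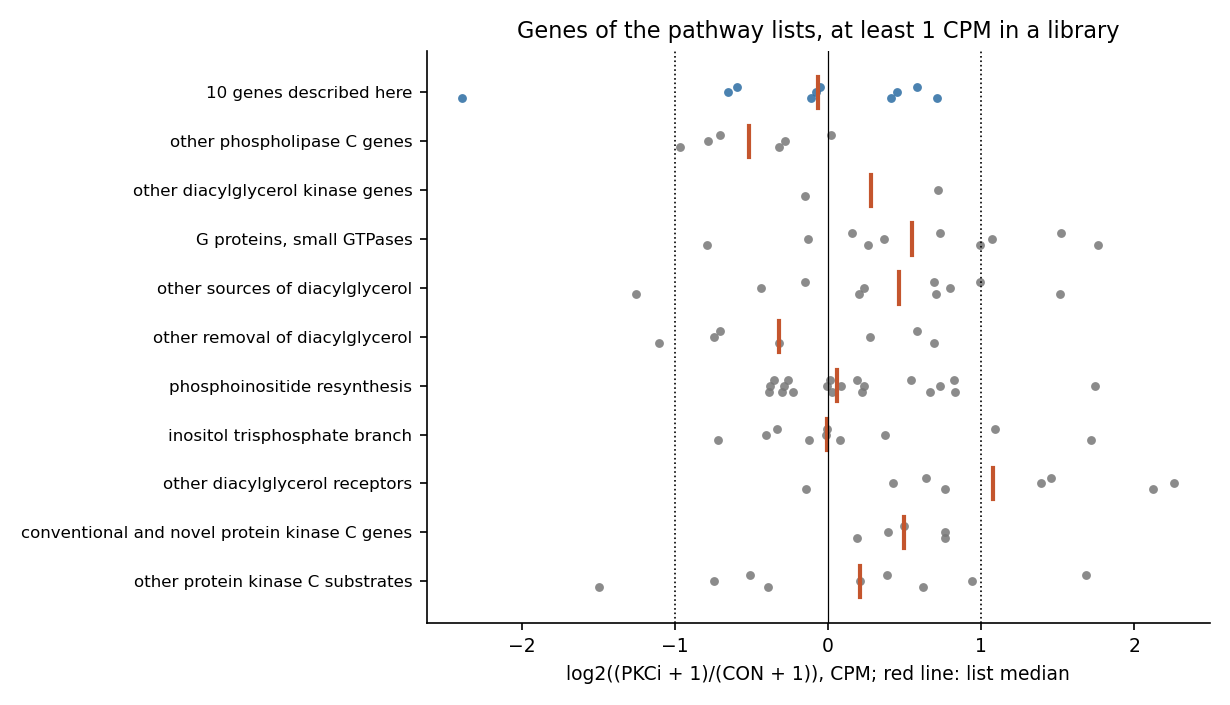
Log2 ratio of PKCi to untreated (1 CPM added) for the 10 genes (blue) and for the measured genes of the 10 pathway lists (grey). Each point is a gene, red lines are list medians and dotted lines mark 2-fold. The diacylglycerol receptor list has its median at 1.08 with 4 of 8 genes past 2-fold, and Plce1 is the lowest point of all.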

How the data were processed

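Messenger RNA was measured in 2 libraries of CMT167R cells, grouped by the treatment in the labels. Per the labels' protocols, stranded poly(A) libraries were sequenced as paired-end reads, although a second protocol there names retinas and an unstranded kit. Per the submitters' processing notes, HISAT2 2.0.5 was a tool used, with GRCm38 and mm10 as builds. How reads were counted, with or without strand, is not given here. The authors deposited a table of whole-number read counts per gene with gene symbols, positions and lengths. Its name speaks of FPKM, but the whole numbers and the unequal totals are those of raw counts, and they were used as counts. Sample columns left unassigned numbered 0.

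Counts were divided by library totals (CPM). The log2 ratio used a pseudocount of 1 CPM, and genes needed 1 CPM in at least 1 library. Folds are plain CPM ratios with exact conditional binomial (Clopper-Pearson) 95% intervals, and levels above 0 have exact Poisson intervals. Both cover counting error only. PCR copies of a molecule cannot be told apart, and copies counted as separate reads would make the intervals too narrow. For a count of 0, a limit of 3 counts was taken instead. TPM used the listed lengths. With 1 library per group, no test was run. Python 3.11.15, pandas 2.3.3 and scipy 1.17.1 were used, with edgeR 4.0.16 for TMM factors alone. The procedure was tested on simulated data drawn with counting error alone, which cannot show how it fares with spread between cultures. The alternatives were 5 scalings, 2 pseudocounts, 2 filters and a 1.5-fold threshold. The members and lists were chosen with earlier results of these data known. All 10 members are named. From each pathway list, genes past 2-fold and otherwise up to 3 with the largest ratios are named, with the relatives of the members. A few others, such as Gnaq, Gna11, Itpr1, Lpin1 and Lpin2, were named after their values were seen.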

Additional observations from a re-analysis of the deposited data

How the results depend on the processing

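All 10 members kept the sign of their log2 ratio under the 5 scalings and 2 pseudocounts, and 69 of 70 such values stayed within the counting interval of the gene. The exception was Plce1 with TPM in place of CPM, at −1.81, still past 2-fold. There the 1 was added to levels of 5.96 and 0.978 TPM, in place of 29.3 and 4.79 CPM, and so weighs more. The median of the members ranged from −0.08 to −0.04 over 9 alternatives. At 1.5-fold in place of 2-fold, 3 members were lower and 1 higher. Of the other pathway genes, 11 were lower (background 16.7%) and 30 higher (background 16.8%). With a pseudocount of 0.1 CPM, the other pathway genes past 2-fold numbered 5 downwards (3 with 1 CPM) and 15 upwards (12 with 1 CPM). No background share is given for that pseudocount, and a smaller one weighs less on low levels in any gene. Whether these rises are particular to the pathway genes was not tested. With TPM the summed phospholipase C members were 1.47-fold and the MARCKS pair 1.14-fold higher, since TPM weights the genes by length. The sum of the diacylglycerol kinase members ranged from a ratio of 0.821 to 0.846. Leaving out a library was not possible with 1 per group. No paired analysis was possible because each group held 1 library, so no number pairs them. Depth limits Plcb4, and differences between cultures were not measured.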

Other observations

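Lists of receptors and calcium genes around phospholipase C were added after the data were seen and get no test. Of 36 genes listed as Gq-coupled receptors, 9 were measured. The list is broad, and coupling to Gq was not tested for any of them. With PKCi, 3 of the 9 passed 2-fold upwards (6.53% of all measured genes did) and 2 downwards (5.13% of all measured genes did). Both bradykinin receptor genes were among those higher: Bdkrb2 was at 17.4 and 120.3 CPM (6.91-fold, 95% interval 6.09 to 7.86) and Bdkrb1 at 4.23 and 37.1 CPM (8.79-fold, 95% interval 6.83 to 11.5). S1pr2, a sphingosine 1-phosphate receptor gene, was 2.26-fold higher (30.4 and 68.6 CPM). Both protease-activated receptor genes that were measured were lower. F2r, the thrombin receptor gene, was at 98.6 and 24.7 CPM (3.99-fold, 95% interval 3.57 to 4.47), and F2rl1 was at 45.0 and 15.1 CPM (2.99-fold, 95% interval 2.58 to 3.47). The lysophosphatidic acid receptor gene Lpar2 was at 63.5 and 54.6 CPM.

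Of 25 genes for calcium entry, stores and calcineurin, 19 were measured and 1 passed 2-fold, upwards (6.53% of all measured genes did). It was Orai1, the pore of store-operated calcium entry, at 17.3 and 36.8 CPM (2.13-fold higher, 95% interval 1.85 to 2.47). The store sensors differed in direction, Stim2 at 61.6 and 90.5 CPM and Stim1 at 40.5 and 31.5 CPM. Rcan1, a calcineurin feedback gene, had 307 and 306 counts. Of 19 genes for regulators of G protein signalling, 7 were measured and 0 passed 2-fold on the log2 scale. Of all measured genes, 6.53% passed it upwards and 5.13% downwards. Rgs3 had 59 and 28 counts.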
